A study of Rattus norvegicus with 2 samples.

Results

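Transcripts of cadherins, protocadherins and catenins were examined in cultured rat oligodendrocyte precursor cells (OPCs), the dividing glia from which myelin-forming oligodendrocytes arise. The members were the table entries whose gene symbol belongs to the numbered cadherins, the cadherin-related genes, the protocadherins, Celsr1 to Celsr3, Fat1 to Fat4, Dchs1 and Dchs2, the alpha-catenins (Ctnna) or the p120-type delta-catenins (Ctnnd), chosen by name and not by level. There were 85 such entries among 17202 genes. Primary cells from the brain of wild-type rats received either amyloid-beta (Aβ), the peptide of Alzheimer's plaques, at 1 µM for 2 days, or the solvent DMSO, and both groups share the genotype, the medium and the cell type label. The protocol for the DMSO culture repeats the text for Aβ, so its 2 days rest on that shared wording. Donor age is given unclearly: the labels speak both of developing and of adult animals, and the titles carry P1. Each group is 1 library, so no difference has a replicate check, no test was run and every comparison is between these 2 libraries.

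Cadherins are calcium-dependent adhesion proteins. Classical cadherins bind the same cadherin on the neighbouring cell and hold the actin cytoskeleton through catenins: p120-type catenins keep them at the membrane, and alpha-catenin links the complex to actin. Protocadherins lack that catenin link. Many of them lie in 3 gene clusters, alpha, beta and gamma, in which each variable exon has its own promoter. In the alpha and gamma clusters every variable exon is spliced to the same constant exons, so the isoforms of a cluster share the end of their transcript, and in neural cells the set of isoforms gives a cell a surface identity. In oligodendrocyte precursors N-cadherin takes part in contacts with axons and in migration.

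Library totals were 15117102 estimated counts with Aβ and 15019416 with DMSO. The level for measurement was set at 1 CPM (a count scaled to the size of the library) in either library, which 69 of the 85 entries and 13510 genes in all reached. The 8 OPC markers listed summed to 1526 TPM (a level per transcript length, scaled to a fixed total) with Aβ and 1474 TPM with DMSO. Markers of other cells were also present: the 8 astrocyte markers summed to 1904 and 1815 TPM, with Gfap at 838.5 and 792.7 TPM, although Gjb6 had 1 count in each library. The 9 neuronal markers summed to 824.8 and 793.5 TPM, led by Tubb3 at 371.5 and 352.8 TPM. Stmn2 and Map2 followed, at 212.0 and 151.1 TPM with Aβ. Syt1, Gad1 and Snap25 had 30.0, 24.5 and 22.8 TPM with Aβ. Rbfox3, Slc17a7 and Nefl were the lowest, at 6.39, 4.58 and 1.99 TPM with Aβ. Microglial and endothelial markers were low, at 11.8 and 14.9 TPM and at 2.14 and 1.96 TPM. Of all these markers 0 differed by the rule of size given below, beside 0.696% of measured genes. Counting intervals, explained below, left out 1 for some. They lay above 1 for Gpr17 (ratio 1.17, 1.10 to 1.25), Pdgfra (1.08, 1.05 to 1.10), Gfap, Slc1a3 and Map2. They lay below 1 for Matn4 (0.620, 0.407 to 0.935) and Aldh1l1 (0.883, 0.809 to 0.963). The share of any cell type in the levels below was not tested. In bulk RNA, fewer cells of a type and less RNA per cell cannot be told apart.

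The members took 0.528% of all counts with Aβ and 0.518% with DMSO. Ratios below are CPM with Aβ over CPM with DMSO, with a 95% Clopper-Pearson interval in parentheses. That interval describes counting error only and holds no replicate spread, since each group is 1 library. Reads without molecular identifiers are not independent molecules, so it can be too narrow even for counting error. The rule of size called a gene at a difference of at least 2-fold on the log2(CPM + 0.5) scale with an interval that left out 1. It called 0 of the 69 measured members, where it called 0.696% of all measured genes, 0.266% as higher and 0.429% as lower with Aβ, and at 1.5-fold it also called 0, beside 1.75% of measured genes. Ratios of measured members ran from 0.705 (Pcdhb14, 32 and 45 counts) to 1.37 (Pcdhga4, 108 and 78 counts). For 53 of the 69 the whole interval lay within 1.5-fold of 1, or 76.8%, beside 80.0% of measured genes. In order of TPM the first 12 members held the same places in both libraries: Pcdhgc3, Ctnna1, Cdh2, Pcdhgc5, Cdh13, Ctnnd1, Ctnnd2, Fat1, Cdh4, Celsr2, Ctnna2 and Cdh10.

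**Figure D1:**
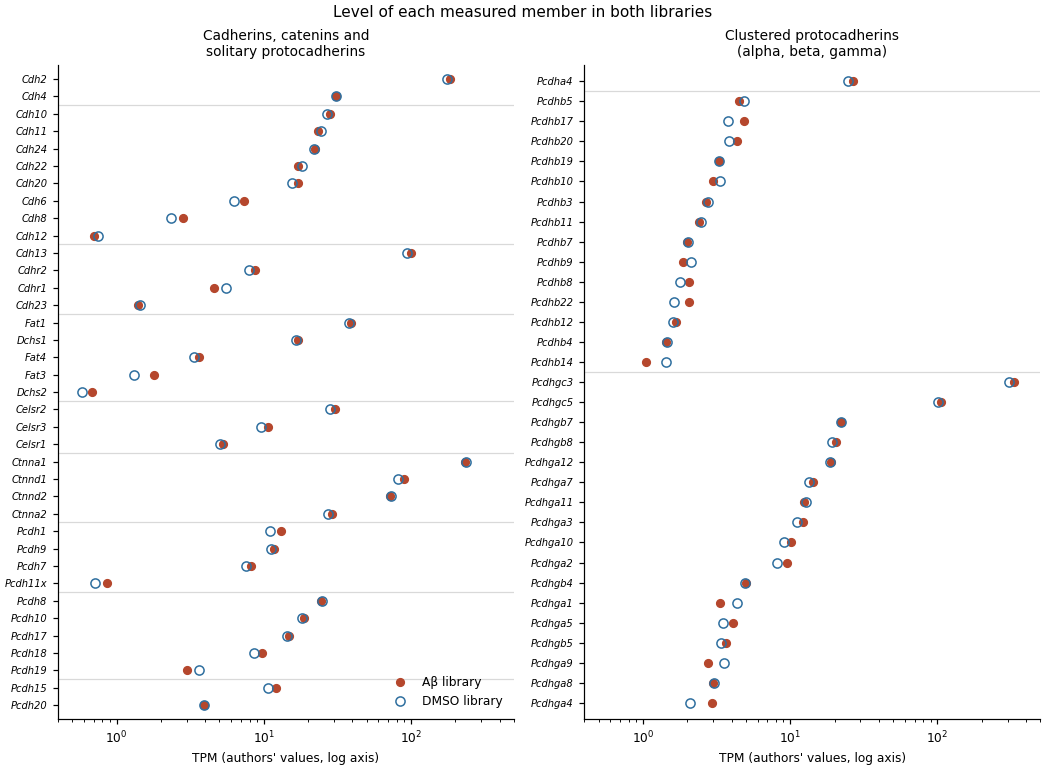
Level of each measured member in TPM (log axis) in the Aβ library (filled) and the DMSO library (open), grouped by role and ordered by mean level within a group. The symbols of most entries touch or overlap, and Pcdhgc3 at 329.6 and 304.3 TPM stands highest.

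Stretches before the starts of cluster genes are shown here because each cluster entry has its own promoter. Promoter windows of RefSeq (build GRCr8, 250 bases before to 50 after the gene start) were found for 67 of the 85 members. A short element around the letters CGCT, known from the protocadherin clusters as a conserved promoter element, was sought in a gamma form, CTCTNNGNGNCGCT, and a beta form, GGTGGCGCTG. The beta form is the longest run around CGCT that all beta windows share, and the gamma form holds the letters common to the gamma windows with CTCT at that distance before CGCT. Both strands were searched, and since the forms were read from these windows their counts only describe them. In capitals is the matched form, in stretches of 30 bases on the plus strand of chromosome 18.
Pcdhgc3: ctgggaCTCTGTGTGCCGCTgtcggccaat
Pcdhga9: ttagggCTCTGAGCGCCGCTgttcaccaac
Pcdhga12: ttcggaCTCTGAGCGCCGCTgttcacccac
Pcdhgb8: aatggaCTCTGGGCGCCGCTgttgtccaat
Pcdhga2: ctaggcCTCTGAGCGTCGCTgttgaccacc
Pcdhb5: tatgaacgcagGGTGGCGCTGcaggctaag
Pcdhb19: tgaagacacatGGTGGCGCTGcaggataat
Pcdhb20: cagagacacatGGTGGCGCTGtaggataag
Pcdhb14: acagaacgcttGGTGGCGCTGcaggctaag
The gamma stretches lie at chr18:29884065-29884094 (Pcdhgc3), chr18:29815782-29815811 (Pcdhga9), chr18:29843861-29843890 (Pcdhga12), chr18:29839495-29839524 (Pcdhgb8) and chr18:29745082-29745111 (Pcdhga2). Those of the beta genes lie at chr18:29302403-29302432 (Pcdhb5), chr18:29478763-29478792 (Pcdhb19), chr18:29485809-29485838 (Pcdhb20) and chr18:29431808-29431837 (Pcdhb14).

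The gamma form was in 11 of 15 windows of 14 gamma genes, and in 0.123% of all 33469 windows. The beta form was in 14 of 14 windows of beta genes, and in 0.221% of all windows. Neither form was in the 40 windows of members outside the clusters, while CGCT alone, which both forms hold, was in 60.9% of all windows. The match began between 30 and 174 bases before the start of the gamma genes and between 46 and 229 bases before that of the beta genes. The window of Pcdhgc3, the gamma entry with the most counts, is given whole (chr18:29883995-29884294, plus strand), with the matched form in capitals.
Pcdhgc3: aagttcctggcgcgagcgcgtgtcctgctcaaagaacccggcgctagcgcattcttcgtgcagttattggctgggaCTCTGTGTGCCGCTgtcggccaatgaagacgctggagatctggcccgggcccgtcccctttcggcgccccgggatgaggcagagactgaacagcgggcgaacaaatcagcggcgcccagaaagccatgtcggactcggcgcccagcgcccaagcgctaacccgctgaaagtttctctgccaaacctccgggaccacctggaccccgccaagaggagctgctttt

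Type I classical cadherins were represented by 2 measured genes of 5 listed. Cdh2 (N-cadherin), the main cadherin of neural cells, had 182.5 TPM with Aβ and 176.2 TPM with DMSO, from 7854 and 7735 counts. Its ratio was 1.01 (0.976 to 1.04), the most closely bounded of the classical cadherins. Cdh4 (R-cadherin), which can pair with N-cadherin, had 1761 and 1797 counts at 31.12 and 31.13 TPM, a ratio of 0.972 (0.910 to 1.04). Cdh1 (E-cadherin), the epithelial cadherin, had 4 counts in each library. Cdh3 (P-cadherin) had 5 and 3 counts and Cdh15 (M-cadherin of muscle) 11 and 12. Type I cadherin transcripts in these cultures were therefore almost all Cdh2 and Cdh4, whose counts together had a ratio of 1.00 (0.972 to 1.03).

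Of 12 type II classical cadherins listed, 8 were measured, and 5 had a ratio above 1 and 3 below. Cdh10 led the class with 28.24 TPM with Aβ and 26.73 TPM with DMSO (865 and 836 counts, ratio 1.03, 0.932 to 1.13). Cdh11 (OB-cadherin, of mesenchymal and neural cells) had 1074 and 1148 counts, a ratio of 0.928 (0.853 to 1.01). Cdh24 had 727 and 721 counts, a ratio of 1.00 (0.901 to 1.11). These levels all lay above 20 TPM, with Cdh10 the highest in both libraries. Cdh22 had 509 and 565 counts (0.894, 0.791 to 1.01), the lowest ratio of the class, and Cdh20 had 568 and 556 counts (1.01, 0.900 to 1.14). Cdh6 (K-cadherin) had 253 and 221 counts and the highest ratio of the class, 1.14 (0.944 to 1.37). All 8 intervals included 1. Cdh8 and Cdh12 lay below 10 CPM, and Cdh7, Cdh9, Cdh18 and Cdh19 were below the level of measurement, with 2 to 15 counts.

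Among 7 atypical cadherins and cadherin-related genes, 4 were measured. Cdh13 (T-cadherin), which is held in the membrane by a lipid anchor and has no cytoplasmic tail, stood at 99.81 TPM with Aβ and 93.68 TPM with DMSO. Its 3243 and 3101 counts gave a ratio of 1.04 (0.987 to 1.09), and per length it came next after Cdh2 among members that are neither protocadherins nor catenins. Cdhr2, known from the microvilli of brush borders, had 354 and 331 counts (1.06, 0.911 to 1.24). Cdhr1, known from photoreceptor outer segments, had 194 counts with Aβ and 238 with DMSO. Its ratio was 0.809 (0.665 to 0.981), 1 of 4 members with an interval wholly below 1. Such intervals were found for 6.90% of all measured genes, against 5.80% of measured members. Cdh23, which forms the tip links of hair cells with Pcdh15, had 150 and 158 counts (0.942, 0.748 to 1.18). Cdhr4, Cdhr5 and Cdh17 had 1 or 2 counts in each library.

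The giant cadherins of the Fat and Dachsous families bind each other across cells in planar polarity and growth control. Fat1, a regulator of actin at the cell edge, had 5979 and 5929 counts at 38.83 and 37.70 TPM, a ratio of 1.00 (0.965 to 1.04). Dchs1, the partner of Fat4, had 1850 and 1824 counts (1.01, 0.943 to 1.07). Fat4 itself had fractional counts of 619.61 and 583.93 (1.05, 0.939 to 1.18). The intervals of these 3 genes all included 1. Fat3, known from the shaping of retinal neurons, had 271 counts in the Aβ library against 203, at 1.80 and 1.32 TPM. Its ratio of 1.32 (1.10 to 1.60) was the largest among measured members outside the clusters. Dchs2 had 80.87 and 69.95 counts, and Fat2 had 0 and 3 counts, so no ratio is given for it.

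Celsr cadherins, the 7-pass receptors of the Flamingo type that act in planar polarity and axon tract formation, were all measured and all had a ratio above 1. Celsr2 had 3211 counts in the Aβ library and 3029 in the other, at 30.32 and 28.01 TPM, a ratio of 1.05 with a lower limit of 1.00 and an upper limit of 1.11. Celsr3 had 1320 and 1190 counts, a ratio of 1.10 (1.02 to 1.19). Celsr1 had 586 and 574 counts (1.01, 0.901 to 1.14). Summed, the 3 had 5117 and 4793 counts, a ratio of 1.06 (1.02 to 1.10). They are long genes, and across all genes the ratio moved with length: the median log2 ratio was -0.040 in the shortest of 20 equal bins of implied length and 0.041 in the longest. The part of that trend in their ratios was not tested, and when it was taken out, a step added once the data had been seen, the median log2 ratio of the 3 was 0.031 in place of 0.072.

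Catenins of the cadherin complex were among the most abundant members. Ctnna1, the alpha-catenin found in most tissues, came next after Pcdhgc3 and had 231.6 TPM with Aβ and 234.9 TPM with DMSO, from fractional counts of 7377.13 and 7480.59 (ratio 0.978, 0.947 to 1.01). Ctnna2, its neural counterpart, had 1146 and 1096 counts at 29.21 and 27.09 TPM (1.04, 0.954 to 1.13). Ctnnd1 (p120-catenin), which protects cadherins from removal from the membrane, had 4708 and 4412 counts at 88.84 and 81.62 TPM. Its ratio was 1.06 (1.02 to 1.10), with an interval wholly above 1. Ctnnd2 (delta-catenin), which is largely neural, had 3502 and 3609 counts at 72.19 and 72.82 TPM (0.962, 0.918 to 1.01). The p120-type pair thus lay on opposite sides of 1, by a few per cent each. Ctnna3 had 2 and 1 counts, and the summed catenins had a ratio of 1.00 (0.979 to 1.02).

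Solitary protocadherins lie outside the clusters and are sorted into delta-1, delta-2 and other forms. All 4 delta-1 genes had a ratio above 1 with an interval that included 1. Pcdh1 had 13.07 and 11.03 TPM from 350 and 301 counts (1.15, 0.986 to 1.35). Pcdh9 had 11.78 and 11.14 TPM from 709 and 685 counts (1.03, 0.923 to 1.14), so the order of this pair changed between the libraries, and Pcdh7 had 615 and 577 (1.06, 0.942 to 1.19). The delta-1 genes summed to 1711 and 1594 counts, a ratio of 1.06 (0.994 to 1.14), Pcdh11x being the remaining one with 37 and 31 counts.

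Delta-2 protocadherins, several of which bind the WAVE complex of actin assembly, summed to 4169 and 4214 counts. Their ratio was 0.981 (0.940 to 1.02) by counts and 1.01 by summed TPM. TPM ratios lay above count ratios in general, by a median of 0.038 on the log2 scale over genes with 50 or more counts. Pcdh8, a regulator of N-cadherin at synapses, had 962 and 1010 counts at 24.28 and 24.71 TPM (0.945, 0.864 to 1.03). Pcdh10 had 1304 and 1298 counts (0.996, 0.922 to 1.08), and Pcdh17 had 1143 and 1135 (0.999, 0.919 to 1.09). Pcdh18 had 496 and 444 counts (1.11, 0.973 to 1.26). Pcdh19, the X-linked gene mutated in a childhood epilepsy and a partner of N-cadherin, had 264 counts with Aβ and 327 with DMSO at 2.99 and 3.65 TPM. Its ratio of 0.801 (0.678 to 0.945) was the lowest of the measured members outside the clusters. Pcdh15, a tip-link protein of hair cells that also marks OPCs, had 557 and 503 counts (1.10, 0.972 to 1.24), and Pcdh20 had 201 and 208 (0.959, 0.786 to 1.17). Pcdh12, of endothelium, had 1 and 0 counts.

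**Figure D2:**
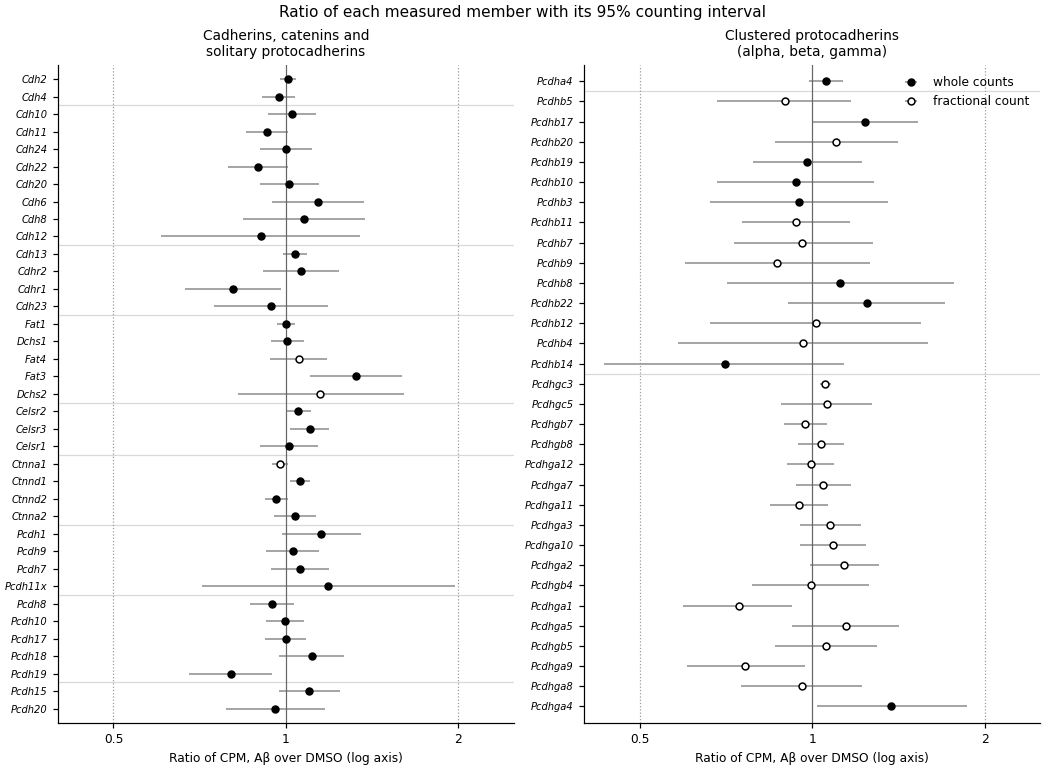
Ratio of CPM in the Aβ library to that in the DMSO library (log axis) for the 69 measured members, with 95% counting intervals; filled symbols are entries with whole counts, open symbols entries with a fractional count, and dotted lines mark 2-fold. All symbols lie between 0.705 and 1.37, and intervals leave out 1 for 7 members above it and 4 below.

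The gamma protocadherin cluster held more counts than any other group of members, 21681.6 with Aβ and 20655.6 with DMSO over 17 entries. Pcdhgc3, a C-type isoform, had 14823.78 counts with Aβ and 13958 with DMSO. That was 68.4% (67.7 to 69.0, exact binomial interval) and 67.6% (66.9 to 68.2) of the counts of the cluster. Its ratio was 1.05 (1.03 to 1.08), and at 329.6 and 304.3 TPM it ranked 397 and 439 among all genes. No other gamma entry exceeded 22.11 TPM apart from Pcdhgc5.

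Pcdhgc5, another C-type isoform, showed how count and TPM can part. Its 249.7 and 233.88 counts were 1.15% and 1.13% of the cluster, yet its 106.2 and 100.1 TPM were 18.3% and 18.4% of the summed TPM of the cluster. The effective length that the authors' FPKM implies, with the summed counts as library size, was 218.5 bases for this entry. The next shortest measured member had 2017 bases, and 1.27% of measured genes had a shorter value than Pcdhgc5. By counts Pcdhgc5 stood among the middle entries of the cluster, and by TPM it was the fourth of all members. Its ratio was 1.06 (0.883 to 1.27).

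**Figure D3:**
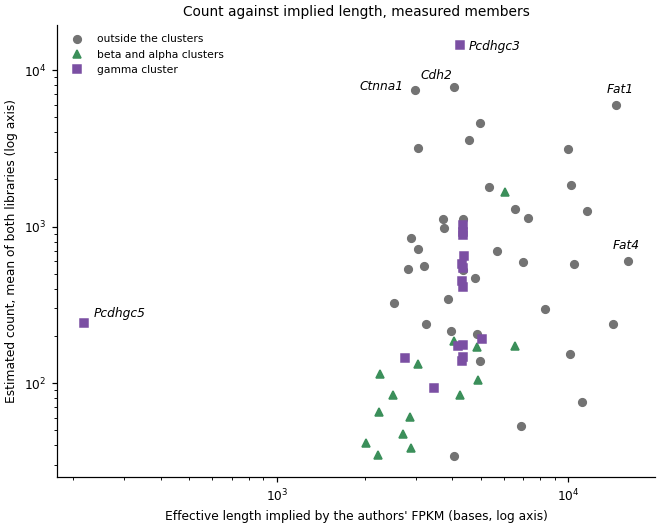
Estimated count (mean of both libraries, log axis) against the effective length that the authors' FPKM implies (bases, log axis) for the measured members; squares are gamma, triangles alpha and beta, circles other members. Pcdhgc5 lies apart at 218.5 bases, while most gamma entries line up between 4178 and 4391 bases and Pcdhgc3 stands above them.

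The A-type and B-type gamma entries were lower and moved in both directions. The 11 A-type entries summed to 4297.6 and 4186.06 counts, a ratio of 1.02 (0.976 to 1.06), and the 4 B-type entries to 2310.49 and 2277.63, a ratio of 1.01 (0.949 to 1.07). The highest were Pcdhgb7, with 1019.17 and 1039.98 counts (0.972, 0.891 to 1.06), Pcdhgb8, with 948.27 and 907.07 (1.04, 0.946 to 1.14), and Pcdhga12, with 879.03 and 878.29 (0.993, 0.903 to 1.09). Next came Pcdhga7 with 670.32 and 635.91 counts (1.05, 0.936 to 1.17), Pcdhga11 with 566.43 and 593.4 (0.947, 0.842 to 1.06), Pcdhga3 with 565.61 and 521.76 (1.08, 0.953 to 1.21) and Pcdhga10 with 466.54 and 425.54 (1.09, 0.951 to 1.24). Pcdhga2 had 440.23 and 384.4 counts (1.14, 0.989 to 1.31), Pcdhga5 had 188.98 and 163.72 (1.14, 0.922 to 1.42) and Pcdhgb5 had 197.23 and 185.02 (1.06, 0.860 to 1.30).

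In 3 of the 16 entries other than Pcdhgc3 the interval left out 1, or 18.8%. Among all genes of the same count range, given below, that share was 18.1% of those with fractional counts and 8.55% of those with whole counts. The lowest ratio was that of Pcdhga1, 147.4 counts against 196.71 with DMSO, at 0.743 (0.594 to 0.921). Pcdhga9 had 128.6 and 167.11 counts, a ratio of 0.763 (0.604 to 0.970). Pcdhga4 had 108 and 78 counts, a ratio of 1.37 (1.02 to 1.86), and was the only gamma entry with whole counts in both libraries. It was also shorter, at an implied 3465 bases, than the other A-type entries, which ran from 4178 to 4391 bases. Without Pcdhgc3 the cluster had a ratio of 1.02 (0.982 to 1.05), against 1.04 (1.02 to 1.06) with it. The interval above 1 of the whole cluster thus rested on that entry.

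**Figure D4:**
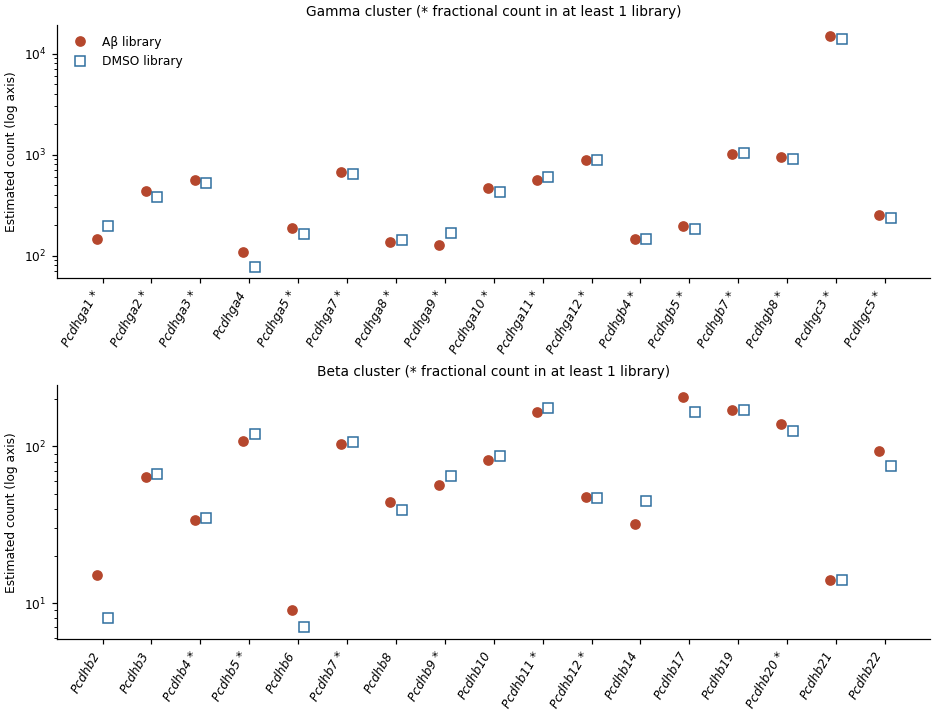
Estimated counts (log axis) of each gamma and beta entry in the Aβ library (filled) and the DMSO library (open); an asterisk marks a fractional count. Pcdhgc3, at 14823.78 and 13958 counts, lies far above the rest of its cluster, and the beta entries all lie between 7 and 207 counts.

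The alpha cluster appeared as 1 entry, Pcdha4, with whole counts of 1708 and 1603 at 26.55 and 24.52 TPM (ratio 1.06, 0.987 to 1.13). The beta cluster had 17 entries, of which 14 were measured, and its genes have no shared constant exons but are close copies of each other. Together they had 1389.01 and 1357 counts, a ratio of 1.02 (0.941 to 1.09). Pcdhb17 was the most counted with Aβ, at 207 counts against 166, and its ratio was 1.24 with limits of 1.00 and 1.53, and it was the only beta entry whose interval left out 1. Pcdhb5 had the highest mean level per length, at 4.51 and 4.89 TPM from 108.31 and 119.76 counts (0.897, 0.682 to 1.17). Pcdhb19 had 170 and 172 counts (0.980, 0.788 to 1.22), and Pcdhb11 had 167.25 and 177 (0.937, 0.753 to 1.16). Of the measured beta entries, 5 had a ratio above 1 and 9 below. Low counts widened their intervals, and only 6 of 14 lay within 1.5-fold. Pcdhb2, Pcdhb6 and Pcdhb21 were below the level of measurement, with 7 to 15 counts.

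Counts that are not whole, as when ambiguous reads are shared out among transcripts, were listed mostly in the clusters. They were listed in at least 1 library for 16 of 17 gamma entries, 7 of 17 beta entries and the single entries Ctnna1, Fat4 and Dchs2. That makes 26 of 85 members, or 30.6%, beside 13.4% of all genes listed. All 26 were measured, and among measured genes the share was 13.2%. These entries held 37.9% of member counts with Aβ and 37.8% with DMSO, beside 14.4% of all counts in each library. The sum of a cluster does not depend on how reads are divided inside it, while the value of an isoform does, and the labels do not state how it was made. Ratios of single gamma and beta entries, Pcdhgc3 included, are uncertain for that reason, most plainly where the count is fractional. The gamma sum itself was not whole, at 21681.57 counts with Aβ and 20655.57 with DMSO. Whether reads were shared with entries outside the cluster, or reads of the constant exons were assigned to Pcdhgc3, was not tested.

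Entries with at least 75 counts in both libraries and at most 1039.98, the highest gamma value below Pcdhgc3, allowed the spread of ratios to be set beside counting error. Over 16 gamma entries the SD of the log2 ratio was 0.21, where counting alone gives 0.13. Over 8 beta entries it was 0.19, the same as counting alone. For 20 members outside the clusters it was 0.17, where counting alone gives 0.11. Over all genes of this range it was 0.14 for 6558 genes with whole counts, where counting alone gives 0.12, and 0.22 for 885 genes with fractional counts, where counting alone gives 0.13. By SD the gamma entries thus lay between the whole and the fractional genes of the table, and close to the fractional ones, as a description without a test.

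Counts and TPM gave the same order of libraries for most members. The TPM ratio was above the ratio by counts by a median of 0.038 on the log2 scale over 11868 genes with 50 or more counts in both libraries. Of 64 members with such counts, 58 lay within 0.02 of that shift. The other 6, named after their values were seen, were Cdh8, Cdh20, Cdh22, Pcdhb10, Ctnna1 and Pcdhgc5. In Cdh8 the implied length was 4730 bases with Aβ and 5231 bases with DMSO. Its ratio was 1.07 by counts (143 and 132, interval 0.842 to 1.37) and 1.22 by TPM. That step also holds the general shift of 0.038. For Cdh20 the lengths were 3113 and 3282 bases and the ratio 1.01 by counts and 1.10 by TPM. For Pcdhb10, with 82 and 87 counts, they were 2583 and 2414 bases, and the ratio was 0.935 (0.683 to 1.28) by counts and 0.898 by TPM. An entry's length can differ between libraries where the estimated mix of its transcripts differs.

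Over the 69 measured members, 40 had a ratio above 1 and 29 below, or 58.0% above, beside 49.7% of all measured genes. Their median log2 ratio was 0.018, beside -0.00071 for all measured genes. The members were long, with a median implied length of 4335 bases against 2311 bases for measured genes. At 3000 bases or more, 35 of 55 members had a ratio above 1, or 63.6%, beside 57.7% of the 4868 measured genes of that length. The median log2 ratio was 0.052 for these 55 members and 0.019 for those genes. Intervals lay wholly above 1 for 7 of the 69 members, or 10.1%, beside 6.48% of measured genes. That share is over genes of all counts, and intervals narrow as counts rise. The 7 were Fat3, Celsr2, Celsr3, Ctnnd1, Pcdhb17, Pcdhgc3 and Pcdhga4, and the 4 wholly below 1 were Cdhr1, Pcdh19, Pcdhga1 and Pcdhga9. All 11 were of 3000 bases or more. Of the 55 members of that length, 12.7% had an interval wholly above 1 and 7.27% wholly below, beside 9.45% and 4.40% of measured genes of that length.

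Genes that work with cadherins were taken as 6 lists, chosen with earlier results of these data known, so their shares only describe them. None was called in any list, against 0.696% of measured genes. The counts in each list stand beside 49.7% of measured genes with a ratio above 1, 6.48% with an interval wholly above 1 and 6.90% with one wholly below. Those shares cover measured genes of all counts. Intervals narrow as counts rise, so a list of highly counted genes has no matched share beside it here. Of 14 other adherens junction genes, 6 lay above 1 and 8 under it, and the list median was -0.0080 on the log2 scale. No interval left out 1. The furthest were the nectins, adhesion proteins that partner with cadherins, with Nectin2 at 556 and 517 counts (1.07, 0.945 to 1.20) and Nectin3 at 808 and 769 (1.04, 0.943 to 1.15). Among 11 genes of cadherin cleavage and turnover, 9 had a ratio above 1, with a median log2 ratio of 0.041. Furthest of these were subunits of gamma-secretase, with Psen2 at 243 and 197 counts (1.22, 1.01 to 1.48) and Psenen at 493 and 429 (1.14, 0.999 to 1.30).

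Of 14 measured genes of core planar polarity, which acts with the Celsr cadherins, 8 had a ratio above 1, and 2 intervals lay wholly above 1, or 14.3% beside 6.48% of measured genes, and 0 below, beside 6.90%. Prickle3, a cytoplasmic member, had 28 and 14 counts (1.98, 1.01 to 4.08), and Fzd6, a Frizzled receptor, had 87 and 71 (1.22, 0.878 to 1.69). Of 15 genes of the Fat and Dachsous pathway, 7 had a ratio above 1 and 8 below. Atn1 (atrophin) was the furthest, with fractional counts of 69.14 and 143.87 (0.477, 0.351 to 0.638), and its log2 ratio of -0.99 was just short of the rule of size. Fbxl7, a ubiquitin ligase subunit tied to Fat, had 203 and 252 counts (0.799, 0.661 to 0.965).

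Regulators of the protocadherin clusters include the insulator protein CTCF, the cohesin complex and DNA methylation enzymes, which set promoter choice in the clusters. Of 18 such genes 10 had a ratio above 1, beside 49.7% of measured genes. Intervals lay wholly above 1 for 6 of the 18, or 33.3%, beside 6.48% of measured genes and 9.45% of those of 3000 bases or more. For 0 of the 18 they lay wholly below. The 6 ratios were small, from 1.06 (Nipbl) to 1.09 (Stag1). Apart from Dnmt3b, at 65 and 68 counts, the list was highly counted, from 1331 (Wiz, DMSO) to 7412 counts (Rad21, Aβ). Intervals are narrow at such counts, and no genes of like counts were set beside the list. The list had a median log2 ratio of 0.029, and of 0.018 with the length trend removed. The furthest were the cohesin subunit Stag1, with 1512 and 1378 counts (1.09, 1.01 to 1.17), and the histone methyltransferase Nsd1, with 4800 and 4409 (1.08, 1.04 to 1.13). These are long genes as well, with a median implied length of 5665 bases for the list. Of 16 measured protocadherin effectors 9 had a ratio above 1. Intervals lay wholly above 1 for 3 and wholly below for 3, or 18.8% each way, beside 6.48% and 6.90% of measured genes. Wasf3, a WAVE protein, had 488 and 387 counts (1.25, 1.09 to 1.43), and the receptor kinase Ret had 91 and 75 (1.20, 0.877 to 1.66).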

How the data were processed

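Bulk mRNA was sequenced in 1 library per group. Bowtie2 and the genome build Rnor_6.0 stand in the submitters' processing notes; versions, quantifier, annotation and use of strand were not given in those sources. Per the file headers the authors deposited estimated counts (expected counts, fractional for some genes), TPM and FPKM per gene, and a normalized read count, a signal that equalled the authors' count rounded up over 1 constant per library for 100% of values above 0, and was not used.

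CPM were computed on TMM effective library sizes (edgeR 4.0.16, R 4.3.3). Counts were rounded for these sizes and for exact Clopper-Pearson 95% intervals (scipy 1.17.1), conditional on the sum of both counts. The pseudocount was 0.5 CPM. The interval and the rule of size were also run on simulated whole counts with planted changes. Those counts held no divided reads and no replicate spread, so that run does not bear on either. A count was taken as whole within 0.001. Gene identifiers matched RefSeq (GRCr8) for 83 of 85 members, all with the same symbol.

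Named were members that were called, reached 10 CPM, had an interval that left out 1 or led their class by TPM (53 members), and the furthest 2 of each pathway list; others are given as ranges or marked. Marker lists covered OPCs, oligodendrocytes, astrocytes, neurons, microglia, endothelium, fibroblasts, Schwann cells and ependyma, and none held a called gene. In the lists not described above, intervals left out 1 for Col1a2 (1.58, 1.19 to 2.11) and Pmp22 (0.933, 0.876 to 0.993). Sums not given in the text were 63.6 and 62.8 TPM (oligodendrocyte), 6.27 and 5.34 (fibroblast and pericyte), 125.0 and 131.2 (Schwann cell) and 11.3 and 11.9 (ependyma) with Aβ and DMSO. Members and lists were chosen with earlier results of these data known. Alternatives were DESeq2 1.42.0 size factors, total counts, TPM, FPKM, other filters, pseudocounts and folds.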

Additional observations from a re-analysis of the deposited data

How the results depend on the processing

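With DESeq2 size factors, total counts, no filter, a filter of 10 CPM, pseudocounts of 1 and 5, a 1.5-fold rule or whole counts alone, 0 members were called, as with the settings of the report. The median log2 ratio of measured members stayed above 0, from 0.0057 with the length trend removed (chosen after seeing the data) to 0.061 with TPM, beside 0.037 for all measured genes with TPM. Members with an interval wholly below 1 numbered 2 in place of 4 with whole counts alone, since Pcdhga1 and Pcdhga9 have fractional counts. The gamma cluster had a summed ratio of 1.07 with TPM, of 1.37 with whole counts alone, which leaves only Pcdhga4, and of 1.02 without Pcdhgc3, an alternative chosen after seeing the data. Of 53 named members, the TPM ratio left the counting interval for 1 (Pcdhgc3, 1.08), and 0 did so with the other scalings. The side of 1 changed with TPM for 4 (Pcdh10, Pcdh17, Pcdhb19 and Pcdhga12), with DESeq2 size factors for 2 (Pcdh10 and Pcdh17) and with total counts for 1 (Pcdh17), all with intervals that include 1. Of the class sums, compared in alternatives chosen after seeing the data, TPM took type II cadherins from 0.984 to 1.03 and delta-2 protocadherins from 0.981 to 1.01, and moved type I cadherins from 1.00 to 1.03. All these TPM ratios, that of Pcdhgc3 included, hold the general shift over count ratios, a median of 0.038 on the log2 scale. No replicate could be left out with 1 library per group. No paired analysis was possible because each group holds 1 library. Depth limited the low entries: at 32 and 45 counts, the interval of Pcdhb14 ran from 0.434 to 1.13.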
